A study of Mus musculus with 12 samples.

Results

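The PYHIN genes are a family of DNA sensors that lie side by side on mouse chromosome 1. They were chosen by symbol, as a gene family, with earlier results of these data known: 10 symbols were looked up (*Aim2*, *Ifi202b*, *Ifi203*, *Ifi204*, *Ifi205*, *Ifi207*, *Ifi209*, *Ifi211*, *Ifi213* and *Mnda*), and 9 were found among the 28591 genes of the table. *Mnda* has no entry under that symbol, and RefSeq lists it as an older name of *Ifi211*. A further 5 family genes of the table (*Ifi206*, *Ifi208*, *Ifi214*, *Mndal* and the pseudogene *Ifi203-ps*) are given beside them.

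PYHIN proteins pair a pyrin domain, which binds other pyrin domains, with a HIN domain, which binds double-stranded DNA. AIM2 assembles on DNA in the cytosol with the adaptor ASC (*Pycard*) and with caspase-1 into an inflammasome, which matures interleukins and opens pores in the membrane. Most of the other family genes are induced by interferon, and in mice they are best known from macrophages and other immune cells, with several implicated in the control of interferon genes. p202, the product of *Ifi202b*, lacks the pyrin domain and opposes AIM2, and its level is known to differ widely between inbred strains.

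The groups were 6 WT mice, of the strain C57BL/6 J in the study's methods, and 6 rd6 mice (*Mfrp* rd6/rd6, the strain *Mfrp* rd6/J), all 1 mo of age and without treatment. The mutation is inherited and present in all cells, and rd6 mice develop a retinal degeneration. Each library held the RPE of both eyes of a sample, taken from the eyecup after the anterior segment and the neural retina had been removed, so that it may also carry RNA of neighboring tissue. Whether the WT mice were littermates of the rd6 mice, or how far the strains differ outside *Mfrp*, is not given in the sources used here, so the genotype and the strain background cannot be told apart. *Mfrp* itself was measured at 30132 to 45442 normalized counts in WT (median 41136) and at 20442 to 29732 in rd6 (median 26281), with no overlap.

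Normalized counts are reads on a gene divided by the size factor of the library. Between 29218135 and 33152725 reads were counted on genes in the WT libraries and between 28907262 and 32336530 in the rd6 libraries, and 3 reads correspond to 2.71 to 3.32 normalized counts. *Rpe65*, the visual cycle enzyme that marks the RPE, held 131906 to 193458 normalized counts in WT and 74331 to 131800 in rd6, and the summed RPE markers spanned 498146 to 696969 in WT and 362077 to 509009 in rd6. A set of 16 keratin and other surface epithelium genes, chosen after the values were seen, summed to 231415 in WT4, 77605 in rd6 1 and 130390 in rd6 5, against 4329 to 29386 in the other 9 libraries. These 3 libraries are called keratin-rich here, and the tested PYHIN genes that were highest in them are given with and without them. By *Xist* and *Ddx3y*, 2 libraries of each genotype came from females.

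The promoters of the family are shown first, because most share a short element. Whether this element bears on the values below was not tested. RefSeq (GRCm38.p6) gave 14 windows, from 250 bases before to 50 after a start, for 12 of the 14 family genes. *Ifi204* and *Ifi203-ps* had none. The core of the element to which interferon-regulatory factors bind, GAAANNGAAA on either strand, stood in 10 of the 14 windows, and in 3.44% of the 32851 windows of all genes. It was found in 9 family genes, between 35 and 134 bases before the start on the coding strand. Below are these matches in capitals, with 15 bases on each side, written 5′ to 3′ on the strand of the gene:
Ifi203, chr1:173942503-173942542, minus strand: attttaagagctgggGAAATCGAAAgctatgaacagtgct
Ifi207, chr1:173741826-173741865, minus strand: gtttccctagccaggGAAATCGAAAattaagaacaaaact
Ifi211, chr1:173913059-173913098, minus strand: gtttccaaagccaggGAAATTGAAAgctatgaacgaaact
Ifi205, chr1:174031865-174031904, minus strand: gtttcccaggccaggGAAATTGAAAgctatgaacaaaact
Mndal, chr1:173880199-173880238, minus strand: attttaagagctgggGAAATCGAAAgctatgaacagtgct
Ifi206, chr1:173491334-173491373, minus strand: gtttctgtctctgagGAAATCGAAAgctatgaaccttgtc
Ifi208, chr1:173673592-173673631, plus strand: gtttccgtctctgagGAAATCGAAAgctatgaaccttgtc
Ifi213, chr1:173599321-173599360, minus strand: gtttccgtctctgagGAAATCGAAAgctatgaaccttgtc
Ifi214, chr1:173536012-173536051, minus strand: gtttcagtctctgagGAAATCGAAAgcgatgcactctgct

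The inner bases were the same in *Ifi203*, *Ifi207*, *Mndal*, *Ifi206*, *Ifi208*, *Ifi213* and *Ifi214*, and the 40 bases of *Ifi203* and *Mndal* were identical. *Ifi211* and *Ifi205* carried another pair of inner bases. The windows of *Aim2*, *Ifi202b* and *Ifi209* did not hold these letters, and they are printed whole as the contrast. Capitals mark GAGGAAGT, the core to which the myeloid factor PU.1 binds, in *Aim2*, and TTCNNNGAA, the core to which STAT proteins bind, in *Ifi202b*. Both strands were searched, and no match overlapped another in these 3 windows:
Aim2, chr1:173420354-173420653, plus strand: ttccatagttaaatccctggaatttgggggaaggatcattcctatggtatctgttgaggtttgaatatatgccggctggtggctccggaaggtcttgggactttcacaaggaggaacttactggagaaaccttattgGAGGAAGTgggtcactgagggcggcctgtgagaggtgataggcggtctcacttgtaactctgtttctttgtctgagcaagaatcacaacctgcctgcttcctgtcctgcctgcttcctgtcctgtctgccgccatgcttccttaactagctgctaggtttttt
Ifi202b, chr1:173982795-173983094, minus strand: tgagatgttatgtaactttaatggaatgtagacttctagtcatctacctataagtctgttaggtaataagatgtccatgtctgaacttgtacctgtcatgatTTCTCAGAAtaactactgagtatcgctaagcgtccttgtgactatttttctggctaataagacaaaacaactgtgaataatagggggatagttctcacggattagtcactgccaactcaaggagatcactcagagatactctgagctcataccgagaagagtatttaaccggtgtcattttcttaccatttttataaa
Ifi209, chr1:173630609-173630908, plus strand: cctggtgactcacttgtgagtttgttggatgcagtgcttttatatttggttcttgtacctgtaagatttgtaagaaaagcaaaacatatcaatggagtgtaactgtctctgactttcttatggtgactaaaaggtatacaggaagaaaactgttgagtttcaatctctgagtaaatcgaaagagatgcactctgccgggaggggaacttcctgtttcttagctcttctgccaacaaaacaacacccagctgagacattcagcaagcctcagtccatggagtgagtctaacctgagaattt

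GAGGAAGT stood in 3.20% and TTCNNNGAA in 8.30% of all windows. The *Aim2* start of RefSeq lies inside the longer span that GENCODE gives the gene (chr1:173350879-173466040, GRCm38). In GENCODE the 9 genes found reach from there to the end of *Ifi205* at position 174031810, and a match of letters is a description of the window and no measured binding.

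The test, limma across the 17768 genes whose mean reached 10 normalized counts, took in 8 of the 9 genes. Calls needed an adjusted p-value (q) below 0.05 and a difference of 1.75-fold or more. *Aim2*, *Ifi203*, *Ifi205*, *Ifi207* and *Ifi211* rose in rd6 RPE, and *Ifi202b*, *Ifi204* and *Ifi209* did not pass the test. These 5 of 8 (62.5%) stand against 4.69% of all genes called higher, a description of a family picked with results in view, and 0 of 8 were called lower, against 2.12% of all genes. *Aim2*, *Ifi205* and *Ifi211* had WT means under 10 (5.76, 9.30 and 7.18) and rd6 means above it, so they passed the filter only through the group in which they were high. Without a filter the same 5 genes were called, 5 of 9, against 3.42% of all 28591 genes. All 8 log2 fold changes were positive, from 0.39 to 2.24 with a median of 1.32, where the median over all tested genes was 0.0049. In *Aim2* and *Ifi207* no WT library reached the lowest rd6 value, a separation seen in 5.77% of all genes.

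**Figure D1:**
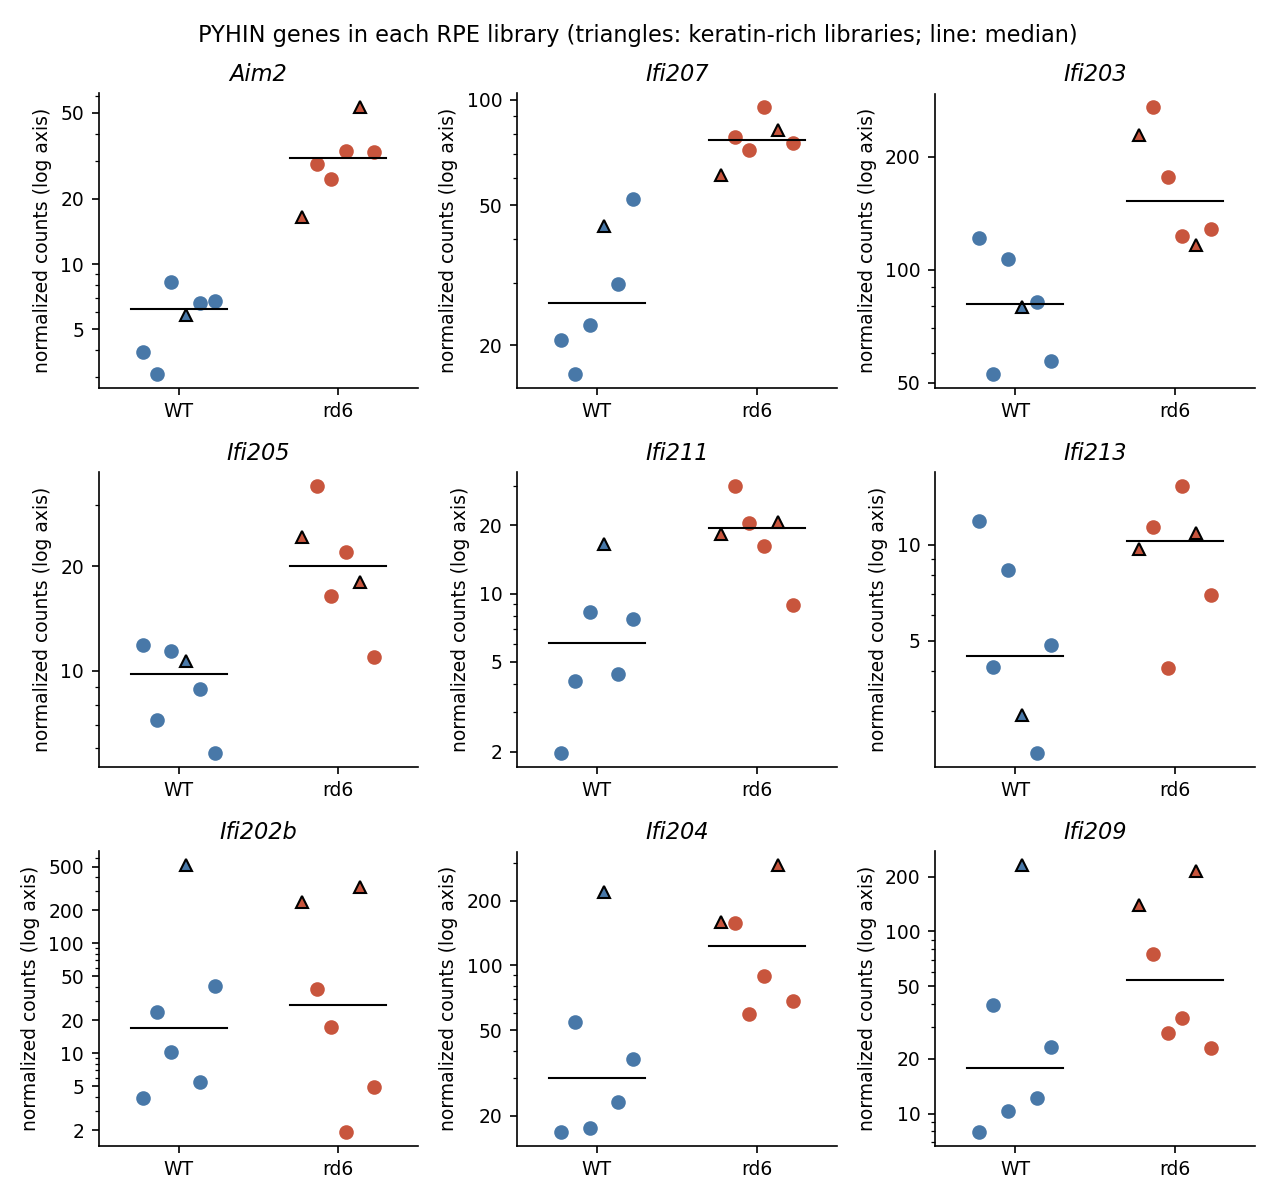
Normalized counts (log axis) of the 9 PYHIN genes in each of the 6 WT and 6 rd6 RPE libraries, with the median of each genotype as a line and the 3 keratin-rich libraries as triangles. *Aim2* and *Ifi207* show no overlap between the genotypes, while *Ifi202b* and *Ifi209* are highest in the triangles of either genotype.

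*Aim2*, the sensor of the DNA inflammasome, had the largest log2 fold change of the 8 genes tested, which it joined only through its rd6 values. WT libraries held 3.10 to 8.30 normalized counts (median 6.23) and rd6 libraries 16.5 to 53.3 (median 30.8). The lowest rd6 library counted 17 reads and the highest WT library 8, so the WT level rests on few reads. The means were 5.76 ± 1.93 in WT and 31.6 ± 12.3 in rd6 (SD, n = 6 per genotype), or a log2 fold change of 2.24 (SE 0.30, limma q = 0.00016) and 4.72-fold on the log2(value + 1) scale. The difference of the groups gave p = 0.00216 in a two-sided exact permutation test, the smallest that splits of 6 against 6 allow. Leaving out each library in turn kept the log2 fold change between 2.08 and 2.40, and all 12 fits called the gene. Without the keratin-rich libraries it was 2.25.

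*Ifi207*, which encodes a protein with both a pyrin and a HIN domain, was the other gene with separate groups. Its WT libraries held 16.5 to 52.2 normalized counts (median 26.4) and its rd6 libraries 61.0 to 95.5 (median 76.9). The highest WT library was WT6, in which the microglia marker *Aif1* also stood apart at 108 normalized counts, against 14.8 to 28.2 in the other WT libraries. The mean went from 31.0 ± 14.1 in WT to 77.4 ± 11.4 in rd6 (SD, n = 6 per genotype), or a log2 fold change of 1.40 (SE 0.26, limma q = 0.0018). Each of the 12 fits with a library left out called it, at log2 fold changes of 1.24 to 1.56.

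*Ifi203* was the member with the highest mean over all libraries, 129 normalized counts. WT libraries held 52.6 to 121 (median 80.8) and rd6 libraries 116 to 271 (median 152), so 5 of 6 rd6 libraries lay above all WT libraries and rd6 5 lay just below the highest. The log2 fold change was 1.04 (SE 0.26, limma q = 0.0118), from 83.2 ± 27.0 to 174 ± 63.7 (SD, n = 6 each). Its neighbor *Mndal*, a gene related to human MNDA that shares 37 exon bases with *Ifi203* on the same strand, held 33.8 to 74.8 in WT (median 62.7) and 62.6 to 141 in rd6 (median 104). At a log2 fold change of 0.76 (SE 0.25, limma q = 0.0454) *Mndal* passed the limit on q but not that on fold, and q alone passes 11.4% of all genes upward. *Mndal* was called in 4 of the 12 fits with a library left out, those without WT4, WT5, rd6 4 or rd6 6, with log2 fold changes of 0.81 to 0.89, and with edgeR and upper-quartile scaling (0.84, edgeR q = 0.0295). The pseudogene *Ifi203-ps* had a log2 fold change of 0.55 (SE 0.34, limma q = 0.271).

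*Ifi205*, an interferon-inducible gene of macrophages, and *Ifi211* were low and rose. *Ifi205* held 5.80 to 11.8 normalized counts in WT (median 9.77) and 10.9 to 34.0 in rd6 (median 20.0), with only rd6 6 inside the WT range. Its log2 fold change was 1.05 (SE 0.28, limma q = 0.0163), and without the keratin-rich libraries 1.05 with q = 0.0562, which misses the limit. *Ifi211* held 1.97 to 16.5 in WT (median 6.08) and 8.95 to 29.9 in rd6 (median 19.5), with WT4, rd6 4 and rd6 6 in the shared range. The log2 fold change of *Ifi211* was 1.45 (SE 0.41, limma q = 0.0224), and the call was lost without WT2 (1.36, q = 0.0509) and without rd6 2 (1.31, q = 0.0534). Of the 100-base stretches of the *Ifi211* transcripts, 56.9% also occur in other family genes, chiefly *Ifi205*, so reads of *Ifi211* may be shared with those genes and its value is uncertain. The corresponding share was 15.04% in *Ifi205*, 16.9% in *Ifi209*, 10.7% in *Ifi204*, 2.84% in *Ifi203* and 0.26% in *Ifi207*. *Aim2* and *Ifi202b* shared no such stretch.

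*Ifi204*, a mouse relative of human IFI16, *Ifi209* and *Ifi202b* spread far more within a genotype than between genotypes. *Ifi204* held 16.8 to 220 normalized counts in WT (median 29.99) and 59.6 to 293 in rd6 (median 123). *Ifi209* held 7.89 to 232 in WT (median 17.7) and 22.9 to 214 in rd6 (median 54.3). The highest WT value of both was WT4, 4.03 times the next for *Ifi204* and 5.92 times for *Ifi209*, and rd6 5 and rd6 1 were the highest rd6 libraries. With all libraries *Ifi204* changed by 1.60 on the log2 scale (SE 0.59, limma q = 0.0702) and *Ifi209* by 1.25 (SE 0.79, limma q = 0.287), and neither was called. Without WT4 alone both passed, *Ifi204* at 2.09 (limma q = 0.0035) and *Ifi209* at 1.88 (limma q = 0.0381).

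Leaving out all 3 keratin-rich libraries separated *Ifi204*, at 16.8 to 54.7 in the other 5 WT libraries and 59.6 to 157 in the other 4 rd6 libraries. WT4, the WT library that reached into the rd6 range, was among those left out. The 3 were set by a sum chosen after the values were seen, so this separation is a description. The share of all genes separated in the 9 libraries left was not counted. The log2 fold change of *Ifi204* was then 1.66 (SE 0.39, limma q = 0.0112), while that of *Ifi209* was 1.13 (SE 0.48, limma q = 0.118). *Ifi202b*, the gene of the AIM2 antagonist p202, went from 3.94 to 519 normalized counts in WT (median 17.1) and from 1.91 to 329 in rd6 (median 27.8), a spread of 131-fold and 172-fold within a genotype. WT4, rd6 5 and rd6 1 were again the highest libraries, in both genotypes. The log2 fold change was 0.39 (SE 1.34, limma q = 0.863) and turned to -0.30 (SE 0.83, limma q = 0.824) without these 3 libraries. No difference of *Ifi202b* between the genotypes was detectable against this spread.

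**Figure D2:**
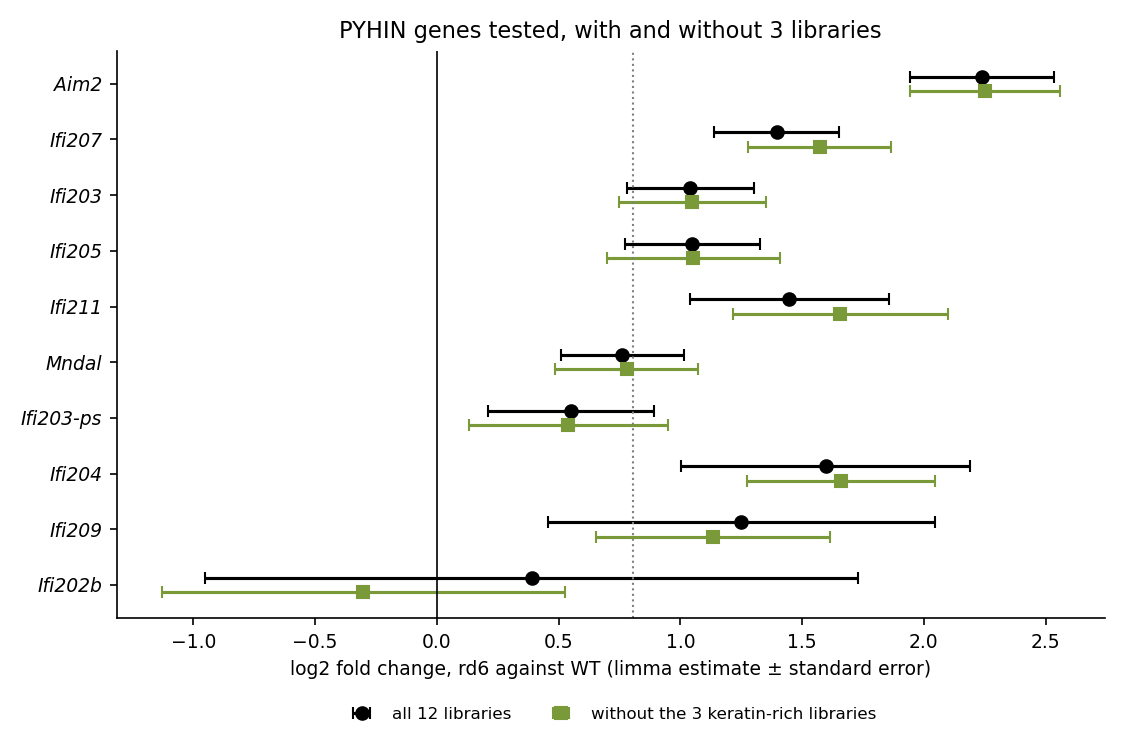
Log2 fold change of rd6 against WT for the 8 PYHIN genes tested and for *Mndal* and *Ifi203-ps*, as the limma estimate ± standard error, with all 12 libraries (circles) and without the 3 keratin-rich libraries (squares). The dotted line marks 1.75-fold, and *Ifi202b* is the only gene of the 10 whose estimate changes sign, from 0.39 to -0.30.

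The lowest genes of the family were counted by few reads. *Ifi213* had a mean of 7.70 normalized counts and fell under the filter, with 2.21 to 11.8 in WT (median 4.48) and 4.11 to 15.3 in rd6 (median 10.3). Fitted without a filter, its log2 fold change was 0.75 (SE 0.39, limma q = 0.255), and it was not called. *Ifi206*, not tested either, held 1.97 to 5.80 in WT (median 4.01) and 7.19 to 19.6 in rd6 (median 12.03). All 6 rd6 libraries of *Ifi206* lay above the WT libraries, and it was called without a filter (log2 fold change 1.54, SE 0.32, limma q = 0.0050). *Ifi208* held 0 to 4.13 in WT and 0.90 to 10.7 in rd6. *Ifi214* held 0 to 4.86 in WT and 0 to 9.03 in rd6, and its highest values were in WT4 and rd6 5.

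Levels of different genes were compared per kilobase of exon, on the scale of normalized counts. By the median over WT libraries, *Mndal* (17.3), *Ifi203* (12.05), *Ifi202b* (10.1), *Ifi204* (8.42) and *Ifi207* (7.70) stood highest, and *Aim2* lay far below at 1.78. In rd6 the medians were 34.6 for *Ifi204*, 28.6 for *Mndal*, 22.7 for *Ifi203*, 22.5 for *Ifi207*, 16.4 for *Ifi202b*, 15.3 for *Ifi209*, 10.9 for *Ifi211* and 8.81 for *Aim2*. The ranges of neighbors in these orders overlap, and their order is not to be read as a difference. *Ifi202b* would lead both orders by the mean, at 59.2 ± 121 in WT and 61.9 ± 83.7 in rd6 (SD, n = 6 each), owing to its few high libraries.

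**Figure D3:**
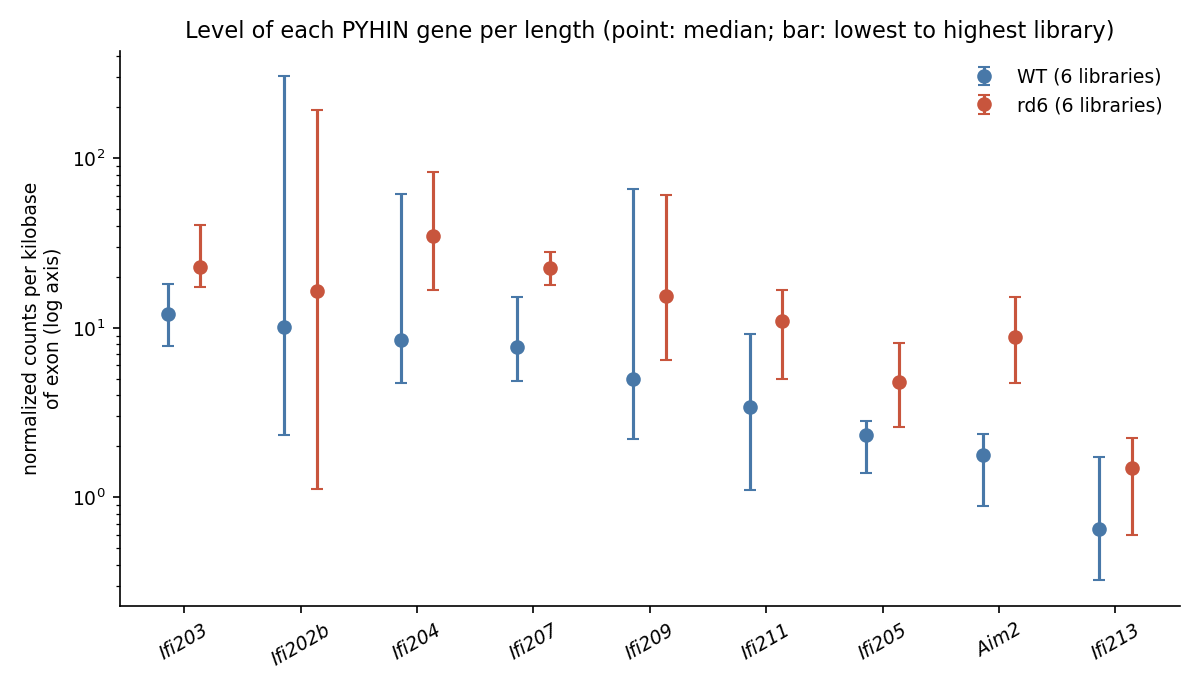
Normalized counts per kilobase of exon (log axis) of the 9 PYHIN genes in WT and rd6 RPE, with the median as a point and the lowest to highest of 6 libraries as a bar. The bars of *Ifi202b*, *Ifi204* and *Ifi209* span 1.13 to 306, while those of *Aim2* and *Ifi207* are short and do not overlap between the genotypes.

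Within each genotype the family fell into sets that moved with different marker genes. The deviations of each library from its genotype mean, on the log2 scale, were compared over the 12 libraries, which share depth and dissection, and the correlations are given as descriptions. *Ifi204* and *Ifi209* deviated together (r = 0.98), and the deviations of *Ifi202b*, *Ifi204* and *Ifi209* followed the surface epithelium sum with r = 0.96, 0.94 and 0.98. Without the 3 keratin-rich libraries these were 0.83, 0.87 and 0.92 over 9 libraries, and that of *Ifi204* with *Ifi209* was 0.98. Other marker sums moved with these 3 genes as well, whereas their r with the endothelial sum was 0.12, -0.17 and -0.09. In the order *Ifi202b*, *Ifi204* and *Ifi209*, the perivascular macrophage sum gave r = 0.92, 0.89 and 0.90 (0.88, 0.69 and 0.74 without the keratin-rich libraries). The sum of monocyte, granulocyte and lymphocyte markers gave 0.90, 0.85 and 0.88 (0.72, 0.31 and 0.43), and the RPE sum -0.95, -0.83 and -0.89 (-0.78, -0.25 and -0.40). The rod sum gave 0.56, 0.50 and 0.54 (0.17, 0.09 and 0.18), and the full microglia sum -0.73, -0.52 and -0.63 (-0.42, 0.11 and -0.07). *Csf1r* makes up most of that microglia sum, and without it the values were -0.06, 0.24 and 0.10 (0.07, 0.41 and 0.28). In rd6 5 the rod sum also stood apart, at 59319 against 16758 to 22484 in the other rd6 libraries. The corneal and conjunctival keratin *Krt5* was listed at 63798 normalized counts in WT4, 35506 in rd6 5 and 19610 in rd6 1, and at 0 to 5413 elsewhere. The part of surface epithelium, or of the other cell types whose sums moved with it, in the values of these 3 PYHIN genes was not tested.

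*Ifi203*, *Ifi205* and *Mndal* formed another set, with r = 0.77 between *Ifi203* and *Ifi205* and r = 0.80 between *Ifi203* and *Mndal*. *Ifi203* followed the sum of 8 endothelial markers with r = 0.85 (0.82 without the keratin-rich libraries) and *Mndal* with r = 0.77 (0.79), but *Ifi205* had r = 0.49 (0.46) with it. With the sum of monocyte, granulocyte and lymphocyte markers, *Ifi203* had r = 0.21 (0.64), *Ifi205* 0.41 (0.60) and *Mndal* 0.55 (0.72). The endothelial sum spanned 5418 to 10252 in WT and 8864 to 20497 in rd6, and 4 of the 8 markers were called higher (50%, against 4.69% of all genes), *Plvap*, *Tie1*, *Esam* and *Cdh5*. This count was 1 without WT2 or without rd6 2, 2 without rd6 1, 7 without rd6 5 and 8 without rd6 4. The genes outside the family whose deviations were most like those of *Ifi203* were *Clec14a* (r = 0.94), *Arl15* (0.93), *Kdr* (0.92), *Ets1* (0.91) and *Crispld1* (0.91), again over 12 libraries. *Clec14a* and *Kdr* encode endothelial surface receptors. The part of endothelial RNA in the rise of *Ifi203* was not tested.

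*Aim2* and *Ifi207* stood apart from both sets, with r of -0.04 and 0.20 to the surface epithelium sum and -0.20 and -0.15 to the endothelial sum. Without the keratin-rich libraries these were -0.47 and -0.09 to surface epithelium and 0.30 and -0.07 to endothelium, so the values of *Aim2* depended on those libraries. The deviations of *Aim2* and *Ifi207* had r = 0.53 with each other (0.61 without the keratin-rich libraries, as for the values in parentheses that follow). With the microglia sum without *Csf1r*, which alone makes up most of the full sum, *Ifi207* had r = 0.72 (0.75) and *Aim2* 0.53 (0.28), whereas *Mndal* had -0.71 (-0.79), *Ifi203* -0.61 (-0.55) and *Ifi205* -0.40 (-0.39). The other 4 tested members lay between -0.06 and 0.24 (-0.01 and 0.41). Without the keratin-rich libraries *Ifi204*, at 0.41, thus lay above *Aim2*. With the full sum of 20 markers *Ifi207* had 0.09 (0.42) and *Aim2* 0.41 (0.44). *Ifi211* had its highest r of the 7 marker sums with the monocyte, granulocyte and lymphocyte markers, 0.77 (0.71), and 0.62 (0.47) with surface epithelium. *Ifi202b*, *Ifi204* and *Ifi209* made up 14.3% to 85.9% of all normalized counts of the 9 genes in WT and 25% to 73.5% in rd6. The sum of all 9 genes was 175 to 1130 in WT (median 205) and 360 to 1138 in rd6 (median 577), and the genotypes overlapped. The sum of the other 6 genes, a set left after values were seen that holds the 5 called genes, was 87.7 to 172 in WT and 263 to 454 in rd6.

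**Figure D4:**
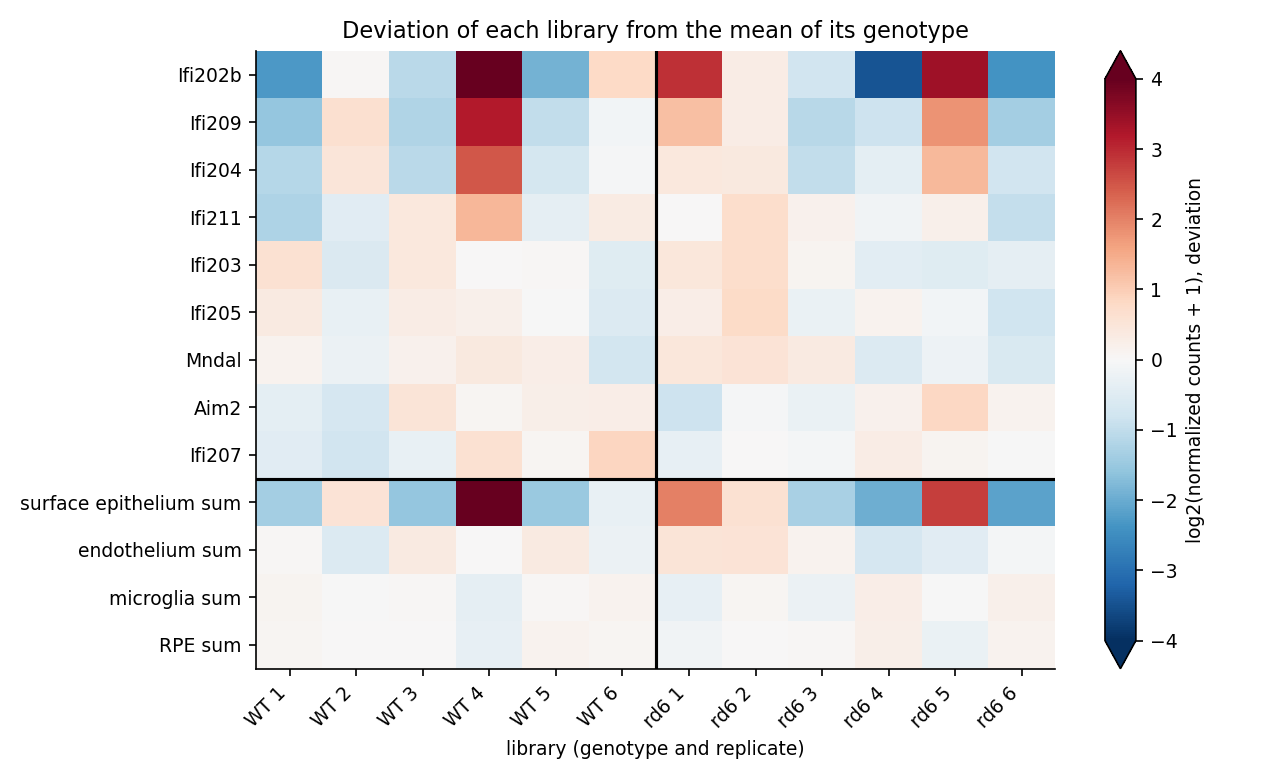
Deviation of each library from the mean of its genotype, in log2(normalized counts + 1), for 9 PYHIN genes (above the line) and for the sums of 4 marker lists (below it), with colors cut at 4 in either direction. WT4, rd6 1 and rd6 5 are red in *Ifi202b*, *Ifi209*, *Ifi204* and the surface epithelium sum, whereas *Ifi203*, *Ifi205* and *Mndal* are red in rd6 2 together with the endothelial sum.

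Microglia and macrophages, in which PYHIN genes are best known, were followed by 20 marker genes. Of these, 19 were called higher (95%, against 4.69% of all genes) and 0 lower, with a median log2 fold change of 2.74, and the exception was *Csf1r* (17256 ± 2183 in WT and 18740 ± 1810 in rd6, SD, n = 6 each, limma q = 0.385). *Aif1*, a marker of microglia and macrophages, went from 35.2 ± 36.3 to 194 ± 66.2 (log2 fold change 2.75, SE 0.44, limma q = 0.00066). The sum of the other 19 markers without *Csf1r* was 1151 to 2617 in WT and 7679 to 17712 in rd6. Per 1000 normalized counts of that sum, *Aim2* had 2.17 to 7.21 in WT (median 3.05) and 1.89 to 3.38 in rd6 (median 2.10), ranges that overlap. *Ifi207* had 11.6 to 24.1 in WT (median 19.9) and 4.48 to 7.95 in rd6 (median 5.49) on this scale, without overlap and in the direction opposite to its own level. Both results depended on leaving out *Csf1r*. Per 1000 normalized counts of the full sum of 20 markers, *Aim2* had 0.166 to 0.426 in WT (median 0.332) and 0.653 to 1.67 in rd6 (median 0.877), higher in rd6 without overlap. On that full sum *Ifi207* had 0.887 to 2.97 in WT (median 1.35) and 2.04 to 2.62 in rd6 (median 2.45), ranges that overlap. In bulk RNA more cells of a type and more RNA per cell cannot be told apart, and the part of microglia in the rise of the PYHIN genes was not tested.

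Other immune cells and perivascular macrophages were followed as well. Of 20 markers of monocytes, dendritic cells, granulocytes and lymphocytes, 7 were tested and 1 was called higher, *S100a8* (14.3%, against 4.69% of all genes, and 1 to 2 genes with a library left out), and the T cell marker *Cd3e* stayed at or below 4.84 normalized counts in every library. The sum of these 20 markers was 316 to 1669 in WT and 390 to 1280 in rd6, with the highest values in WT4 and rd6 5. Among 8 markers of perivascular macrophages 1 was called higher, *F13a1* (12.5%, against 4.69% of all genes), and this call was lost in 10 of the 12 fits with a library left out.

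The partners of *Aim2* in the inflammasome were measured from a list of 20 genes, of which 15 were tested. Of these, 6 rose (40%, against 4.69% of all genes) and 0 fell, with a median log2 fold change of 0.91, and 3 rose when WT5 was left out. *Casp1*, the protease of the inflammasome, held 6.22 to 27.2 normalized counts in WT (median 10.7) and 21.9 to 74.0 in rd6 (median 24.5), a log2 fold change of 1.25 (SE 0.37, limma q = 0.0287). *Pycard*, its adaptor, held 149 to 608 in WT (median 169) and 316 to 724 in rd6 (median 399), a log2 fold change of 1.07 (SE 0.33, limma q = 0.0337). As with *Ifi204*, the highest values of both genes were in rd6 5, and WT4 was the highest WT library. Both calls depended on single libraries, and *Casp1* lost its call in 5 and *Pycard* in 8 of the 12 fits with a library left out. *Pycard* was not called with edgeR either (q = 0.0969 with TMM and 0.0806 with upper-quartile scaling). Without the 3 keratin-rich libraries together both were called, *Casp1* at 1.21 (limma q = 0.0149) and *Pycard* at 1.12 (limma q = 6.2e-05). *Zbp1*, a sensor of Z-form nucleic acids that also leads to inflammasome activation, rose by 1.84 (SE 0.32, limma q = 0.0011), and *Card9*, an adaptor of myeloid cells, by 1.31 (SE 0.28, limma q = 0.0047). *Il1b* and *Nlrp3* were too low to be tested.

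Other sensors of nucleic acids and their adaptors were listed as 27 symbols, with older symbols of *Cgas* and *Sting1* among them. Of 23 tested, 4 rose (17.4%, against 4.69% of all genes) and 0 fell, with a median log2 fold change of 0.22. *Cgas*, the cytosolic DNA sensor that acts through STING, held 4.93 to 30.1 normalized counts in WT and 13.3 to 23.7 in rd6 (log2 fold change 0.41, SE 0.36, limma q = 0.440). *Sting1* held 31.0 to 73.5 in WT and 59.2 to 76.7 in rd6 (0.55, SE 0.20, limma q = 0.0687). The largest rises were those of *Tlr9*, the endosomal DNA receptor (3.25, SE 0.52, limma q = 0.00071), *Zbp1*, and *Dhx58*, a regulator of RNA sensing (1.09, SE 0.23, limma q = 0.0041). *Tlr9* held 0 to 5.80 normalized counts in WT (mean 2.02) and 13.9 to 55.4 in rd6 (mean 24.6). It passed the filter only through its rd6 values, and its WT level rests on few reads.

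Of 44 genes of the interferon pathway outside the family, 12 rose (27.3%, against 4.69% of all genes) and 0 fell, with a median log2 fold change of 0.63. Counted by q alone, 27 rose, against 11.4% of all genes. *Irf8*, an interferon-regulatory factor of myeloid cells, rose from a mean of 49.8 ± 8.40 in WT to 204 ± 53.1 in rd6 (SD, n = 6 per genotype, log2 fold change 1.98, SE 0.20, limma q = 1.4e-05). The antiviral genes *Mx1* (1.92, SE 0.32, limma q = 0.0010) and *Oas1a* (1.58, SE 0.38, limma q = 0.0093) rose as well. *Mx1* had a mean of 7.24 in WT and 33.2 in rd6, so it passed the filter only through its rd6 values.

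**Figure D5:**
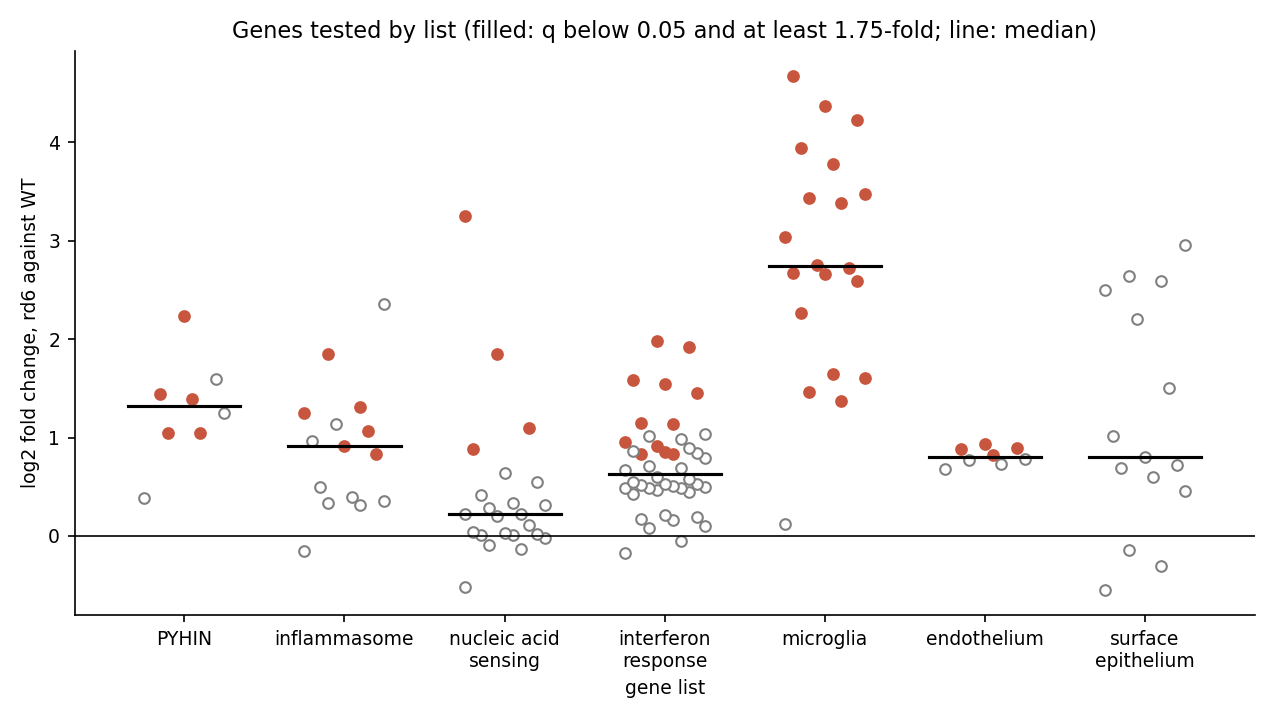
Log2 fold change of rd6 against WT of each gene tested in 7 lists, with genes called (q below 0.05 and at least 1.75-fold) filled and the median of each list as a line. The PYHIN median of 1.32 lies above those of the inflammasome (0.91), nucleic acid sensing (0.22) and interferon lists (0.63) and below that of the microglia list (2.74), with no test between lists.

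Since the strain background could differ near the PYHIN cluster, the genes within 2 Mb on either side were counted. Of 42 tested, 6 were called higher (14.3%, against 4.69% of all genes) and 0 lower, among them *Ly9*, *Cd84* and *Cd48*. These 3 encode receptors of the SLAM family of immune cells. Within 5 Mb of *Mfrp* on chromosome 9, where sequence could have come with the mutation, 93 genes were tested. Of these, 2 were called higher (2.15%, against 4.69% of all genes) and 6 lower (6.45%, against 2.12% of all genes). Counted by q alone, 6 were higher, against 11.4% of all genes, and 21 lower, against 11.6%. The deepest falls there were those of *Htr3a* (-3.83) and *Nxpe4* (-3.32) on the log2 scale. *Nnt*, which is partly deleted in C57BL/6J, was low in both groups, with 4.43 to 9.29 normalized counts in WT and 2.06 to 14.9 in rd6. No sequence of the mice was used here, and whether alleles of the PYHIN cluster differ between the groups was not tested.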

How the data were processed

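RPE total RNA of 6 WT and 6 rd6 mice was sequenced as stranded total-RNA libraries (paired-end). The authors aligned reads to mm10 and counted them with Rsubread, and the deposited values are signal per gene, namely reads scaled by the DESeq2 size factor of each library (tools per the submitters' processing notes and the paper, versions not given in the sources used here). Whether counting used the strand is not given beyond standard parameters. The authors also deposited log2 fold changes, standard errors, a Wald score and p-values from DESeq2, which were not used.

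In each library 100% of the values were whole multiples of the value of 1 read, which gave back the reads. The 28596 entries were reduced to 28591 genes by dropping 5 repeats. The main test was limma 3.58.1 (R 4.3.3, trend) on log2(value + 1), over the 17768 genes averaging 10 or more, with Benjamini-Hochberg adjustment. Such fold changes understate changes of low genes. edgeR had been planned in case the files held raw counts. Calls needed q below 0.05 and at least 1.75-fold. Alternatives numbered 22 planned and 2 added after seeing the data, among them edgeR 4.0.16 and DESeq2 1.42.0 on the recovered reads. Only the main limma fit was tested on simulated data. p-values measure the spread between these samples, since the labels number replicates but do not name the animals. Depth and floors cover counting error only.

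Members and lists were chosen with earlier results of these data known. Named genes were all members and other family genes, *Mfrp*, *Pycard*, *Casp1*, *Cgas* and *Sting1*, the 3 largest called changes of the inflammasome, nucleic acid sensing and interferon lists, markers (*Aif1*, *Csf1r*, *Rpe65*, *Nnt*), and the 5 genes most like the highest member. One marker that the rule names is not reported here. Other genes, *Krt5* among them, were picked once their values were known. Gene positions are from GENCODE M21 and promoters from RefSeq (GRCm38.p6). RPE markers gave 0 called higher and 1 lower of 10 (10%), rod markers 0 and 2 of 10 (20%), against 2.12% of all genes called lower, and the surface epithelium list 0 and 0 of 15 tested.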

Additional observations from a re-analysis of the deposited data

Results flagged for a closer look

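In 6 groups of 6 libraries, of 36 examined, a library stood apart from the rest, its gap to the nearest library exceeding what Dixon's criterion allows. Chance gives about 1 such group in 20.

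WT4 stood apart in 4 PYHIN genes, with 519 normalized counts of *Ifi202b* (nearest WT library 40.6), 220 of *Ifi204* (54.7), 232 of *Ifi209* (39.2) and 4.86 of *Ifi214* (1.11). In the same library the surface epithelium sum was 231415, against 4566 to 19414 in the other WT libraries. WT4 was also lowest in *Csf1r*, at 12921 (nearest 17186). *Aif1* was 108 in WT6 (nearest 28.2), the WT library with the highest *Ifi207*.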

How the results depend on the processing

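The 5 PYHIN calls stood as the same genes in 17 of the 24 alternatives. Blocking on the replicate number (the replicate block) gave 4 calls, without *Ifi211* (q = 0.0684), and neither *Casp1* (q = 0.0708) nor *Pycard* (q = 0.0744) was called. Same-numbered WT and rd6 libraries are different mice, and their deviations correlated between -0.74 and 0.31 (mean -0.25), so they share only a number. A pseudocount of 10 gave 3 calls, and a filter of at least 10 in every library, which 3 members passed, gave 2. Leaving out single libraries gave 4 (without WT2 or rd6 2) to 7 (without WT4), and without the 3 keratin-rich libraries *Ifi204* took the place of *Ifi205*. Of the other family genes, 1 was called without a filter, with edgeR and upper-quartile scaling and with DESeq2, and 0 to 1 with a library left out.

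*Ifi202b* reversed to -0.30 without the keratin-rich libraries and spanned -0.29 to 1.28 with single libraries left out, while *Krt12* spanned -1.51 to 1.55 and *Sfn* -0.0066 to 1.45. *Krt5* reversed to -0.16 (edgeR TMM), -0.1002 (upper quartile) and -0.17 (DESeq2). In the inflammasome list 3 rose with at least 10 in every library, and 3 to 7 with a library left out. In nucleic acid sensing 2 rose with at least 10 in every library. Endothelial markers gave 2 calls under the block, 7 with the upper quartile and 1 (without WT2 or rd6 2) to 8 (without rd6 4) with a library left out. Immune cell markers gave 5 without a filter, 0 with at least 10 in every library, 2 with edgeR (either scaling) and with sex as a term, 7 with DESeq2, 3 without the keratin-rich libraries, and 1 to 2 with a library left out. The perivascular call went to 0 under the block, a pseudocount of 10, no filter, edgeR (either scaling) and DESeq2, and ranged from 0 to 1 with a library left out. Rod markers called lower were 0 under the block and with edgeR (either scaling), 1 without a filter and with sex as a term, 7 without the keratin-rich libraries, and 1 to 7 with a library left out (7 without rd6 5), and RPE markers 1 to 2. Neighbors on chromosome 1 called lower were 1 without a filter, with at least 10 in every library, with edgeR TMM and with sex as a term, 2 with DESeq2, 3 without the keratin-rich libraries, and 0 to 2 with a library left out. Near *Mfrp*, 1 was higher with a pseudocount of 10, 6 without a filter, 4 with DESeq2 and 1 to 4 with a library left out. The cause of these moves was not tested.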

Other observations

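Beyond *Ifi203*, the genes whose within-genotype deviations were most like those of a PYHIN gene, over 12 libraries and chosen after their values were seen, differed from member to member. *Ifi207* was nearest to *Fcgr3* (r = 0.93), an Fc receptor of myeloid cells, followed by *Tnfaip8l2* (0.92), *Mars1* (0.92), *Adgre1* (0.91), which encodes the macrophage protein F4/80, and *Sting1* (0.89). *Ifi202b* was nearest to *Grhl2* (r = 0.99) and *Ifi209* to *Nectin4* (r = 0.99), both genes of epithelia, and *Ifi204* to *Tmem154* (r = 0.99). *Il1rn*, the interleukin-1 receptor antagonist, followed *Ifi202b* with r = 0.98. Without the keratin-rich libraries these values of *Ifi202b*, *Ifi204* and *Ifi209* lay between 0.95 and 0.98. *Ifi205* was nearest to *Mef2a* (r = 0.89), *Ifi211* to *Ppp1r3c* (r = 0.90) and *Aim2* to *Fxyd2* (r = 0.88). The 12 libraries share depth and dissection, the best of 17768 genes is picked for each member, and no test was made.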
